A study of Mus musculus with 30 samples.

Results

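The genes described here are 9 mouse genes that neurons and other cells switch on quickly after a stimulus and whose products act in signalling and growth control: the kinases Plk2, Plk3 and Sik1, the pseudokinase Trib1, the stress sensors Gadd45b and Gadd45g, and the growth regulators Btg2, Ier2 and Ier5. They were named by symbol, with no threshold on their values, but with earlier results of these data known. Each symbol has 1 row among the 24883 rows of the expression table, and all 9 passed the filter on low values, a mean of at least 1 FPKM, with 13184 rows in all. FPKM scales the fragments of a gene to the length of its transcript and to the library's mapped fragments, so levels can be compared between genes per length of transcript.

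RNA came from a dissected hemisphere of the dorsal hippocampus, aimed at dorsal CA1, of male, young adult, wild-type C57BL/6J mice, with 1 library per mouse and 6 mice in each of 5 conditions. Every mouse received in vivo-jetPEI, a polymer that carries DNA into cells, in the dorsal hippocampus 3 days before training. The conditions differed in the cargo of this polymer, in habituation to the training chamber and in training. VEH-HC mice received the reagent without DNA and were only handled in the home cage. VEH-T10 mice received the same vehicle and 10 min of training in the object location memory task, which is enough for a long-term memory, and VEH-T3 mice received vehicle and 3 min, which is not. Y397F-T10 mice carried a plasmid for HA-tagged mouse CREST (gene Ss18l1) whose tyrosine was replaced by phenylalanine, which cannot be phosphorylated, and were trained for 10 min. Y397D-T3 mice carried CREST with aspartic acid at that site, labelled phospho-mimetic, and were trained for 3 min. The study could not detect phosphorylation at this tyrosine and calls both versions only point mutants. A short CaMK2 promoter drove the plasmid, which therefore acts mainly in excitatory neurons and only in cells that took it up, while native CREST remained. Trained mice had been habituated to the training chamber on earlier days and were killed 1 h after training. Home-cage mice were only handled, so against VEH-HC training cannot be told apart from this habituation. No condition combined either plasmid with the home cage, so in Y397F-T10 and Y397D-T3 the plasmid and training cannot be told apart against VEH-HC. Vehicle held no DNA and no plasmid carried wild-type CREST, so against vehicle the mutation cannot be told apart from DNA or added CREST.

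As background, synaptic activity and calcium entry activate CREB, SRF and MEF2 at promoters that are already open, and the transcripts that follow within minutes to an hour are the immediate-early genes. Besides transcription factors such as Fos and Egr1, they include enzymes and adaptors that dampen or redirect the signal. Plk2 lowers the strength of overactive synapses, Sik1 switches off the CREB coactivators of the CRTC family, Trib1 brings substrates to the ubiquitin ligase COP1, Gadd45 proteins activate a stress kinase cascade, Btg2 recruits the enzymes that remove poly(A) tails, and Ier5 binds the heat shock factor HSF1. CREST itself is a calcium-responsive coactivator that works with the acetyltransferase CBP, a partner of CREB.

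The promoters are shown because several of these genes are textbook targets of CREB, the partner of CBP. The RefSeq table on GRCm38.p6 held 6 of the 9 promoters, those of Plk2, Plk3, Gadd45b, Gadd45g, Ier5 and Btg2. Sik1, Ier2 and Trib1 were not in it. The 250 bases before each start were searched on both strands for the CRE (TGACGTCA), its core (TGACG or CGTCA, which every CRE also holds), the CArG box bound by SRF, the TATA box (TATAAA), the site of NF-Y (CCAAT) and the AP-1 site (TGACTCA, which reads TGAGTCA on the other strand). A whole CRE lay 62 bases before the start of Plk2 and 166 bases before that of Btg2. Plk3 had CRE cores 132 and 63 bases before its start. The 3 promoters follow, 5′ to 3′ on the strand of the gene, with the CRE and its cores in capitals. Plk2 is at chr13:110394794-110395043 (plus strand), Btg2 at chr1:134079156-134079405 (minus strand) and Plk3 at chr4:117133964-117134213 (minus strand).
Plk2: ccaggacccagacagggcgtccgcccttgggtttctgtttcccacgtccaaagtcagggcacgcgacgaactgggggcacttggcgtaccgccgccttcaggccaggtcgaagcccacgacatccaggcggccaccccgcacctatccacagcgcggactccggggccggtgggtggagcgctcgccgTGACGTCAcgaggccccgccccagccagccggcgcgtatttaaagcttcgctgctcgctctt
Btg2: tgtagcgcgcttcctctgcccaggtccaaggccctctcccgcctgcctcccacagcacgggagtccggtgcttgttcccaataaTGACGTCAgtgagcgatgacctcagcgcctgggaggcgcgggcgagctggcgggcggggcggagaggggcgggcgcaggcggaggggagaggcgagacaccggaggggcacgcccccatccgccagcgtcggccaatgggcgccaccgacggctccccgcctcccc
Plk3: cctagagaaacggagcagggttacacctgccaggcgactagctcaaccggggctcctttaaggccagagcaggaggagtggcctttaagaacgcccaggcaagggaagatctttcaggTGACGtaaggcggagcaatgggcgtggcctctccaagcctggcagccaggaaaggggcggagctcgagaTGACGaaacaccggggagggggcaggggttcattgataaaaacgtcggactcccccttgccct
Among all 32851 promoters in that table, 1.55% held a CRE, 17.77% a core, 1.47% a CArG box, 12.37% a TATAAA, 33.85% a CCAAT and 4.46% an AP-1 site. The promoters of Gadd45b, Gadd45g and Ier5 held neither a CRE nor its core in these 250 bases. Gadd45b and Gadd45g had a TATAAA, 46 and 27 bases before the start, and Gadd45b, Gadd45g, Ier5 and Btg2 had at least 1 CCAAT. No CArG box or AP-1 site was found in any of the 6. A match of letters does not show that a factor is bound there.

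All 5 CA1 pyramidal neuron markers averaged at least 1 FPKM over all libraries. So did all 4 dentate granule cell markers, all 3 CA3 markers, all 3 thalamic markers, all 3 meningeal fibroblast markers and all 6 choroid plexus markers. The dissections were therefore not CA1 alone, and this level does not single out the tissue of the label. Relative sequencing depth, read from the values that whole fragments give in 2642 weakly expressed rows, lay between 0.81 and 1.24 of the median library, and absolute depth is unknown. The median FPKM of the tested rows ran from 9.08 to 10.3 across libraries. The 6 choroid plexus markers split the libraries into 2 clusters of 15, with summed levels of 10.1 to 360.7 FPKM in the lower and 914.9 to 12760 FPKM in the upper. All 6 VEH-HC mice were in the upper cluster, with 2 mice each of VEH-T10 and Y397F-T10, 4 of VEH-T3 and 1 of Y397D-T3. Ss18l1, to which transcripts of the plasmid could also count, averaged 12.3 ± 0.745 FPKM in VEH-HC, 12.6 ± 0.920 in Y397F-T10 and 13.6 ± 0.471 in Y397D-T3 (SD, n = 6 each).

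The 9 genes spanned a wide range of levels. Plk2 was by far the most abundant, with a mean of 76.9 ± 8.99 FPKM over the 30 mice (SD), higher than 92.6% of the tested rows. Gadd45g followed with 27.6 ± 6.42, Ier5 with 22.0 ± 2.38 and Gadd45b with 11.3 ± 1.80 FPKM. The lower group held Btg2 with 5.69 ± 1.09, Ier2 with 5.48 ± 1.03, Plk3 with 4.44 ± 0.617, Trib1 with 3.33 ± 0.680 and Sik1 with 2.56 ± 0.583 FPKM. In this order the ranges over mice of Gadd45g and Ier5 overlapped, as did those of each pair of neighbours from Btg2 to Sik1, whereas Plk2 lay above Gadd45g, Ier5 above Gadd45b and Gadd45b above Btg2 without overlap. Gadd45g and Trib1 varied most between mice, with a highest to lowest ratio of 2.55 and 2.45, and Plk2 least, with 1.57. The 5 conditions accounted for between 5.81% (Trib1) and 34.6% (Ier2) of the variance of the log2 values, so that for every gene most of the spread lay among mice of the same condition.

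**Figure D1:**
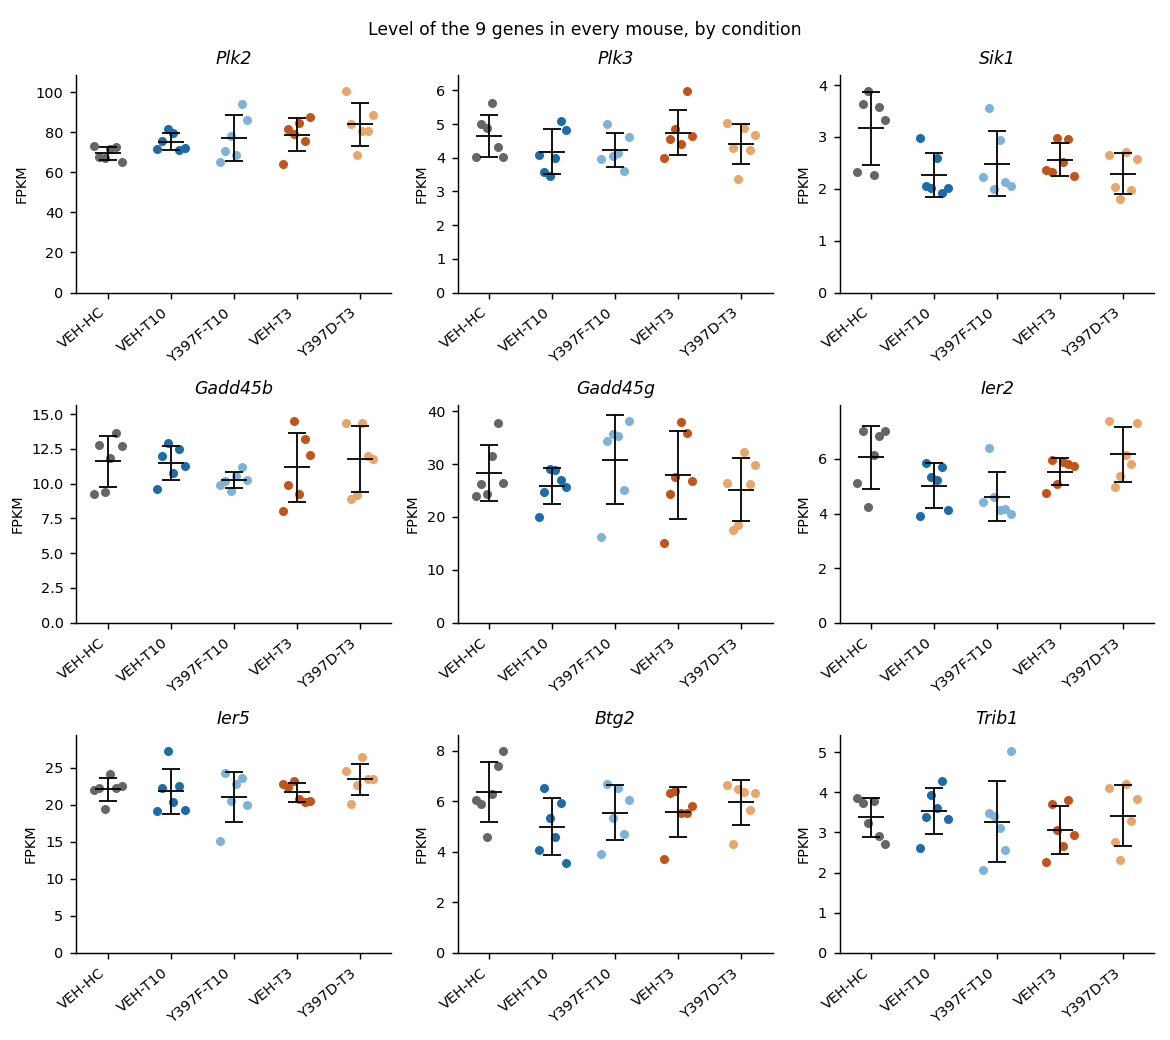
FPKM (vertical axis, from 0) of the 9 genes in each mouse (points) of the 5 conditions (horizontal axis), with the condition mean and SD (n = 6) as black bars. Sik1 is highest in VEH-HC (mean 3.17 FPKM), Plk2 has a mean of 69.5 in VEH-HC and 83.9 in Y397D-T3, and the points of different conditions overlap in every panel.

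Of the 9 genes, only Sik1 was called, and only when the 4 trained conditions were pooled. Differences were tested with limma on log2(FPKM + 1) over all 30 libraries, with Benjamini-Hochberg adjustment over the 13184 tested rows and an adjusted p under 0.05 as the call. The question was which genes had changed 1 h after training of either length, and whether a mutant CREST plasmid altered the response. None of the 9 genes was called in VEH-T10 against VEH-HC, where 0.819% of all tested rows were. The same held for Y397F-T10 (1.13% of all rows called), VEH-T3 (5.17%) and Y397D-T3 (7.07%), each against VEH-HC. Pooled over the 4 trained conditions, 1 of the 9 was called, Sik1, which was lower (9.66% of all rows called). The F test over the 5 conditions called none of the 9, against 2.64% of all rows.

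At an unadjusted p under 0.05 between 11.1% and 22.2% of the 9 passed in the comparisons with VEH-HC, shares near the background given in parentheses. VEH-T10 against VEH-HC had 2 of the 9, Btg2 and Sik1, both lower (14.9% of all rows). Y397F-T10 had 2, Ier2 and Sik1, both lower (16.9%). In VEH-T3 there was 1, Plk2, higher (21.6%), and in Y397D-T3 there were 2, Plk2 higher and Sik1 lower (24.9%). The pooled contrast had Sik1 and Plk2 (25.3%) and the F test had Ier2 and Sik1 (19%). In none of the 7 pairs of conditions tested did the mice separate without overlap for any of the 9 genes. How many of all tested rows did so was not counted, so this is not read as a result about the 9 genes. The median log2 difference of the 9 genes was -0.12 after threshold training (VEH-T10), with -0.03 over all tested rows. It was -0.11 in Y397F-T10 (all rows -0.04), -0.06 in VEH-T3 (all rows -0.04) and 0.00 in Y397D-T3 (all rows -0.03). These 4 comparisons share the VEH-HC mice.

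**Figure D2:**
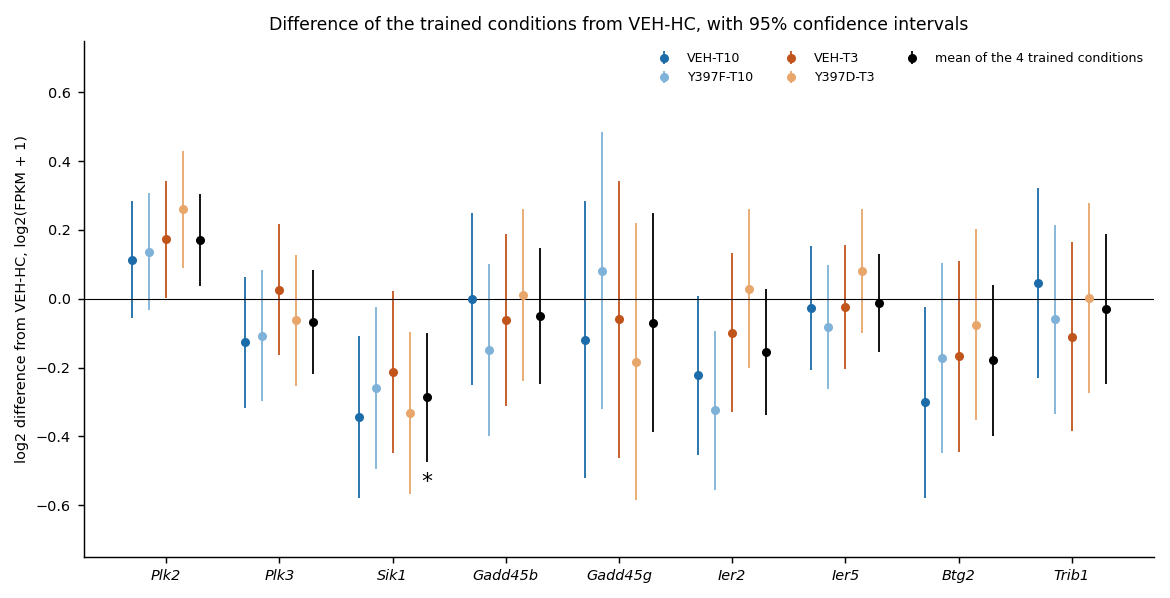
Difference on the log2(FPKM + 1) scale from VEH-HC (vertical axis) of each gene (horizontal axis) in the 4 trained conditions and in their mean, with 95% confidence intervals from limma as lines and an asterisk at an adjusted p under 0.05. Sik1 lies below 0 in all 4 conditions and carries the only asterisk, for the pooled difference of -0.29, and Plk2 lies above 0 in all 4.

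Among the kinases described here, Sik1 stood lowest in level and was the only kinase called, and only in the pooled contrast. That contrast called 9.66% of all tested rows, so the call alone does not set Sik1 apart from other rows. Sik1 (ENSMUSG00000024042, chr17:31844250-31855804, minus strand, GENCODE M21 on GRCm38) encodes salt-inducible kinase 1, a kinase that LKB1 activates and that keeps CRTC coactivators and class IIa histone deacetylases in the cytoplasm. In VEH-HC its lowest, median and highest values were 2.26, 3.46 and 3.89 FPKM. VEH-T10 mice had 1.93, 2.04 and 2.99 FPKM and Y397F-T10 mice had 2.00, 2.18 and 3.55. VEH-T3 mice had 2.25, 2.44 and 2.98 FPKM and Y397D-T3 mice had 1.81, 2.30 and 2.71. Of the 24 trained mice, 23 lay below the VEH-HC median, yet 3 of the 6 VEH-HC mice, at 2.26, 2.32 and 3.335 FPKM, lay within the range of the trained ones.

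Over the 4 trained conditions Sik1 was 0.29 lower on the log2(FPKM + 1) scale (95% interval -0.47 to -0.10, adjusted p = 0.0436, limma), with means of 2.40 ± 0.445 FPKM in the 24 trained mice and 3.17 ± 0.704 in the 6 VEH-HC mice (SD). VEH-T10 mice differed by -0.34 ± 0.12 (SE, adjusted p = 0.134), Y397F-T10 mice by -0.26 (0.248), VEH-T3 mice by -0.21 (0.287) and Y397D-T3 mice by -0.33 (0.0755). Exact permutation tests, 2-sided over 6 against 6 mice, gave p = 0.0303 for VEH-T10 and p = 0.0346 for Y397D-T3, where the smallest p this design allows is 0.00216. Against the vehicle condition of the same training, Sik1 differed by 0.09 (interval -0.15 to 0.32) in Y397F-T10 and by -0.12 (interval -0.35 to 0.12) in Y397D-T3, and neither passed the test.

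The call for Sik1 was at the edge of the threshold. It was lost without any of 16 of the 30 libraries. Without VEH-HC mouse 2, 3, 5 or 6 the adjusted p was 0.0904 to 0.135, and without VEH-T10 mouse 2, 3, 5 or 6, Y397F-T10 mouse 3, 5 or 6, VEH-T3 mouse 2 or 6, or Y397D-T3 mouse 2, 3 or 5 it was 0.0514 to 0.0572. The log2 difference stayed between -0.35 and -0.24 throughout. The call was also lost without the filter on mean FPKM (adjusted p = 0.0559, limma), with libraries centred on their median (0.0587), with trends in transcript length and GC content removed (0.0902), with a replicate block (0.0640) and with the CA1 marker level as a covariate (0.0517), and it held with a pseudocount of 0.1 (0.0474). In Y397D-T3 alone, Sik1 was called without VEH-HC mouse 1 (adjusted p = 0.0441) or mouse 4 (0.0420).

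Sik1 also moved with the markers of the choroid plexus, the epithelium that makes cerebrospinal fluid and lies next to the hippocampus. All 6 markers of that list (Ttr, Kl, Folr1, Aqp1, Clic6 and Slc4a5) had log2 differences below 0 in each of the 4 trained conditions against VEH-HC, although none was called. Each averaged at least 1 FPKM over all libraries. Their summed level ran from 914.9 to 5587 FPKM in VEH-HC, with a median of 3140. It ran from 10.1 to 4460 FPKM in VEH-T10 (median 100.6) and from 28.8 to 10380 in Y397F-T10 (median 55.6). VEH-T3 mice spanned 29.5 to 12760 FPKM (median 1948) and Y397D-T3 mice 13.4 to 2837 (median 123.0), so all 5 ranges overlapped. In mean FPKM the sum was not lower in VEH-T3, at 3253 beside 3193 in VEH-HC. The 15 trained mice of the lower cluster had Sik1 values of 1.81 to 2.65 FPKM with a mean of 2.14 ± 0.234 (SD). The 9 trained mice of the upper cluster had 2.32 to 3.55 FPKM with a mean of 2.84 ± 0.356, beside 3.17 ± 0.704 in the 6 VEH-HC mice. With the marker level as a covariate, a model added after the data were seen, the pooled difference of Sik1 was -0.13 on the log2 scale with an adjusted p of 0.229 (limma).

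Over the 30 mice log2 Sik1 correlated with the mean log2 level of the choroid plexus markers at r = 0.82 and rho = 0.80. The permutation p was 1e-05 for both, adjusted 9e-05 over the 9 genes. Without the 2 farthest libraries it was r = 0.85, and after subtraction of condition means r = 0.78. Within the lower cluster the correlation of log2 Sik1 with the mean log2 level of the markers was r = 0.66 and rho = 0.27 (n = 15, permutation p = 0.00817 and 0.333, adjusted 0.0618 and 0.499 over 18 relations of 9 genes in 2 clusters), and it fell to r = 0.07 without the 2 farthest libraries, so it rested on them. Within the upper cluster it was r = 0.48 and rho = 0.44 (n = 15, permutation p = 0.0731 and 0.1003, adjusted 0.164 and 0.201), and r = 0.58 without the 2 farthest. The 3 genes whose levels followed Sik1 most closely over the 30 mice after subtraction of condition means were Krt8 (r = 0.81), Otx2 (r = 0.81) and Krt18 (r = 0.81), keratins and a transcription factor known from epithelia such as the choroid plexus. The part of the choroid plexus markers in the lower level of Sik1 was not tested beyond the covariate.

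Markers of other cells were lower in the same pooled contrast. Of the meningeal fibroblast markers Dcn, Lum and Col1a2, all 3 had log2 differences below 0 and 1 was called lower, and after subtraction of condition means their level correlated with Sik1 at r = 0.56 over the 30 mice, given as a description. VEH-HC mice had summed levels of 25.7 to 36.4 FPKM, VEH-T10 mice 16.4 to 25.6, Y397F-T10 mice 12.6 to 36.3, VEH-T3 mice 19.9 to 30.3 and Y397D-T3 mice 9.85 to 19.9, so that VEH-T10 and Y397D-T3 lay wholly below VEH-HC. Of the interneuron markers Gad1, Gad2 and Slc32a1, 2 of 3 were called lower, and of the thalamic markers Slc17a6, Tcf7l2 and Prkcd, 1 of 3, with correlations with Sik1 of r = 0.19 and r = 0.35. Their part in the lower level of Sik1 was not tested.

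**Figure D3:**
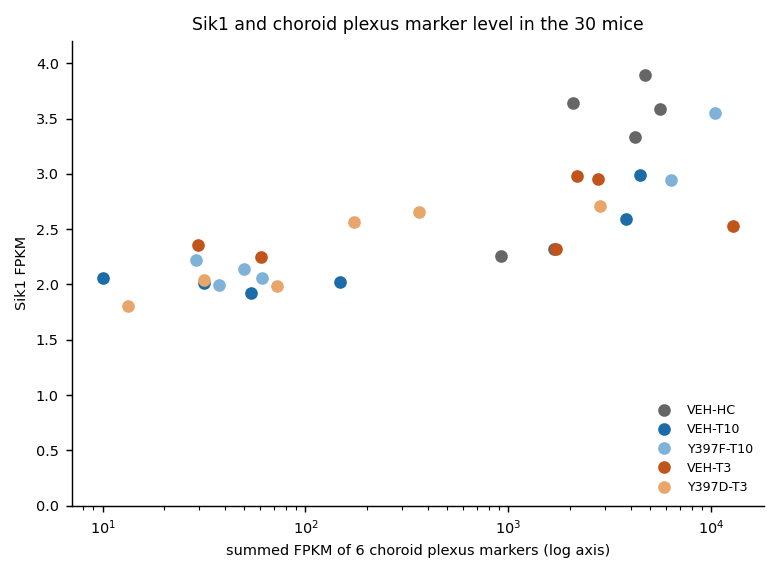
FPKM of Sik1 (vertical axis, from 0) against the summed FPKM of 6 choroid plexus markers (horizontal log axis) in the 30 mice, coloured by condition. The 15 mice with sums of 10.1 to 360.7 FPKM are all trained and have Sik1 values of 1.81 to 2.65, whereas the other mice reach 3.89.

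Of the relatives of Sik1, Sik2, a close homologue with the same substrates, was called higher in VEH-T3 (log2 difference 0.35, adjusted p = 0.0181, limma) and in the pooled contrast (0.22, adjusted p = 0.0294), with means of 3.96 ± 0.775 FPKM in VEH-HC and 5.25 ± 0.448 in VEH-T3 (SD, n = 6). Sik3 was not called in any comparison, with a pooled difference of -0.0044. Of its substrates and activator, Crtc1 showed a pooled difference of 0.13 (adjusted p = 0.0771, limma), Crtc2 of 0.04, Crtc3 of -0.07, Hdac5 of -0.05 and Stk11, which encodes LKB1, of -0.01, none of them called.

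Plk2 was the member with the largest positive differences. Plk2 (ENSMUSG00000021701, chr13:110395046-110400844, plus strand) encodes polo-like kinase 2, which is induced by strong activity and marks the spine protein SPAR (gene Sipa1l1) for degradation. VEH-HC mice spanned 65.1 to 72.9 FPKM with a median of 69.7. VEH-T10 mice spanned 71.3 to 81.6 (median 73.8) and Y397F-T10 mice 65.1 to 94.2 (median 74.3). The range was 64.3 to 87.5 FPKM in VEH-T3 (median 80.4) and 68.5 to 100.7 in Y397D-T3 (median 82.4). VEH-HC was the tightest condition, and 20 of the 24 trained mice lay above its median, 5 of 6 in Y397D-T3.

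Compared with VEH-HC, the log2 difference of Plk2 was 0.26 ± 0.08 (SE) in Y397D-T3 (95% interval 0.09 to 0.43), a ratio of 1.20 in FPKM + 1, and it just missed the threshold with an adjusted p of 0.0541 (limma). The exact permutation test, 2-sided and unadjusted, gave p = 0.00866 for Y397D-T3, p = 0.0368 for VEH-T3, p = 0.0411 for VEH-T10 and p = 0.171 for Y397F-T10. Differences in the other trained conditions were 0.17 in VEH-T3, 0.14 in Y397F-T10 and 0.11 in VEH-T10, with adjusted p values of 0.224, 0.414 and 0.561, and the pooled difference was 0.17 (adjusted p = 0.0982). Within the same training, Plk2 differed by 0.09 (interval -0.08 to 0.26) between Y397D-T3 and VEH-T3 and by 0.02 (interval -0.15 to 0.19) between Y397F-T10 and VEH-T10.

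Plk2 in Y397D-T3 was called under 3 other treatments of the data, namely with libraries centred on their median (adjusted p = 0.0261), with trends in transcript length and GC content removed (0.00853), and with the VEH-HC and Y397D-T3 libraries alone (0.0320). It was also called without Y397F-T10 mouse 1 (0.0423) or mouse 5 (0.0379), VEH-T3 mouse 1 (0.0351) or Y397D-T3 mouse 3 (0.0200). The pooled difference of Plk2 was called with the length and GC trends removed (0.0205) and without VEH-T3 mouse 1 (0.0483).

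Plk2 varied with the CA1 markers, although not with them alone. Over the 30 mice its correlation with the mean log2 level of Wfs1, Fibcd1, Pou3f1, Mpped1 and Neurod6 was r = 0.67 and rho = 0.45 (permutation p = 4e-05 and 0.0148, adjusted 0.00036 and 0.133 over the 9 genes), r = 0.52 without the 2 farthest libraries, and r = 0.66 after subtraction of condition means. After the same subtraction it was r = 0.57 with the oligodendrocyte markers and r = 0.45 with those of dentate granule cells, given as a description. The summed level of the 5 markers ranged from 255.6 to 272.2 FPKM in VEH-HC and from 259.4 to 345.4 in Y397D-T3, where 2 of the 5 were called higher and none was called lower, and 2 of the 5 had log2 differences below 0. With the CA1 marker level as a covariate, likewise added later, the difference in Y397D-T3 was 0.16 with an adjusted p of 0.176 (limma). In bulk tissue more cells of a type and more RNA per cell cannot be told apart. The genes most like Plk2 within conditions were Kcnab1 (r = 0.93), Actr3b (r = 0.92) and Ppp3r1 (r = 0.91), the last a subunit of calcineurin.

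Of the synaptic substrates of Plk2, Sipa1l1 was called higher at the level of RNA in Y397D-T3 (log2 difference 0.22, adjusted p = 0.0123, limma), with means of 46.0 ± 3.35 FPKM in VEH-HC and 53.5 ± 2.00 in Y397D-T3 (SD, n = 6), and in the pooled contrast (0.16, adjusted p = 0.0145).

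Plk3 (ENSMUSG00000028680, chr4:117128655-117133963, minus strand), a polo-like kinase of the stress and DNA damage responses, was expressed at a fraction of the level of Plk2 and did not differ beyond its spread. VEH-HC mice averaged 4.64 ± 0.633 FPKM, VEH-T10 mice 4.18 ± 0.663, Y397F-T10 mice 4.23 ± 0.505, VEH-T3 mice 4.75 ± 0.674 and Y397D-T3 mice 4.404 ± 0.601 (SD, n = 6 each). The largest difference was between the training lengths, -0.15 for VEH-T10 against VEH-T3 (95% interval -0.34 to 0.04, adjusted p = 0.707, limma). Plk5, a relative found mainly in brain, averaged 13.7 ± 1.76 FPKM in VEH-HC and 18.3 ± 5.197 in Y397D-T3 and was not called. Art3 (r = 0.79), Clcc1 (r = 0.77) and Tesk2 (r = 0.74) followed Plk3 most closely within conditions.

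Trib1 (ENSMUSG00000032501, chr15:59648350-59657099, plus strand) is a pseudokinase, a protein with a kinase fold and little or no activity, that ties the ligase COP1 to C/EBP transcription factors. Its condition means lay between 3.07 ± 0.5995 FPKM in VEH-T3 and 3.53 ± 0.573 in VEH-T10 (SD, n = 6), and the highest and the lowest of the 30 values, 5.03 and 2.05, both came from Y397F-T10. Every interval of its log2 differences covered 0, and the pooled difference was -0.03 (interval -0.25 to 0.19, adjusted p = 0.889, limma). Trib2 likewise was not called (0.09), nor were Cop1, listed under its older symbol Rfwd2 (0.08), Cebpa (0.11) and Cebpb (0.11), all for the pooled difference. Igsf11 (r = 0.89), Thbs4 (r = 0.84) and Smim3 (r = 0.83) were most like Trib1 within conditions.

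The Gadd45 genes code for small acidic proteins that bind the kinase MEKK4 (gene Map3k4) and so activate p38 and JNK, and Gadd45b is known in the hippocampus for its part in activity-induced DNA demethylation. Gadd45b (ENSMUSG00000015312, chr10:80930073-80932204, plus strand) had condition means between 10.3 ± 0.588 FPKM in Y397F-T10 and 11.8 ± 2.40 in Y397D-T3 (SD, n = 6). All 6 Y397F-T10 mice, at 9.48 to 11.2 FPKM, were below the median of both VEH-HC (12.3) and VEH-T10 (11.6), but each condition overlapped with Y397F-T10. The log2 difference was -0.15 against VEH-T10 (interval -0.40 to 0.10, exact permutation p = 0.0584) and -0.15 against VEH-HC (interval -0.40 to 0.10, exact permutation p = 0.147). Neither was called, with adjusted p values of 0.9999 and 0.574 (limma).

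Gadd45g (ENSMUSG00000021453, chr13:51846678-51848468, plus strand) had the widest spread within conditions of the 9 genes, an SD of 0.36 on the log2 scale. VEH-HC mice averaged 28.4 ± 5.33 FPKM and VEH-T10 mice 25.9 ± 3.33 (SD, n = 6 each). The mean was 30.8 ± 8.41 for Y397F-T10, 27.9 ± 8.33 for VEH-T3 and 25.1 ± 5.97 for Y397D-T3, and single mice ranged from 15.0 to 38.2. The interval of its pooled log2 difference, -0.39 to 0.25, was the widest of the 9. Gadd45g was most like Odc1 (r = 0.93), Hist1h1c (r = 0.92) and Txnip (r = 0.91), and Gadd45b like 1810026B05Rik (r = 0.81), Rassf1 (r = 0.77) and Lmo2 (r = 0.77). The third family member, Gadd45a, averaged 3.38 ± 0.754 FPKM in VEH-HC and 2.81 ± 0.346 in Y397D-T3 and was not called, and Map3k4 (0.02) and Mapk14, which encodes p38 alpha (0.05), showed small pooled differences that were not called either.

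Btg2 (ENSMUSG00000020423, chr1:134075170-134079120, minus strand) slows proliferation and speeds the removal of poly(A) tails through the deadenylases of Cnot7 and Cnot8. Its lowest, median and highest values were 4.58, 6.17 and 7.99 FPKM in VEH-HC and 3.56, 4.97 and 6.51 in VEH-T10. Y397F-T10 mice averaged 5.55 ± 1.09 FPKM, VEH-T3 mice 5.56 ± 0.988 and Y397D-T3 mice 5.97 ± 0.884 (SD, n = 6 each). Compared with VEH-HC, 5 of 6 VEH-T10 mice were below the median and the log2 difference was -0.30 (interval -0.58 to -0.02), but the adjusted p was 0.293 (limma) and the exact permutation p 0.0758. The other 3 conditions had log2 differences of -0.17, -0.17 and -0.08 from VEH-HC, with intervals that covered 0. Its closest match within conditions was its own paralogue Btg1 (r = 0.80), ahead of Rph3al (r = 0.79) and H2-T9 (r = 0.78).

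In the same family Tob1, another antiproliferative adaptor of the deadenylases, was called lower in VEH-T10 (log2 difference -0.38, adjusted p = 0.0439, limma), in Y397D-T3 (-0.32, adjusted p = 0.0321) and in the pooled contrast (-0.25, adjusted p = 0.0259). Its mean was 19.1 ± 1.87 FPKM for VEH-HC, 14.5 ± 1.21 for VEH-T10 and 15.1 ± 1.43 for Y397D-T3 (SD, n = 6 each). Tob2 had a pooled difference of -0.15 (adjusted p = 0.144) and Btg1 of -0.02, while the pooled differences of Cnot7 (-0.0026), Cnot8 (-0.02) and Prmt1 (-0.07) were not called.

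Ier2 (ENSMUSG00000053560, chr8:84661331-84662852, minus strand), a nuclear protein induced by growth factors, had the largest share of its variance between conditions. Its lowest, median and highest values in VEH-HC were 4.22, 6.49 and 7.01 FPKM. VEH-T10 mice had 3.91, 5.27 and 5.85 FPKM, and Y397F-T10 mice 3.99, 4.29 and 6.40. VEH-T3 mice had 4.74, 5.76 and 5.95 FPKM and Y397D-T3 mice 4.98, 5.97 and 7.39. All 18 mice of VEH-T10, Y397F-T10 and VEH-T3 were below the VEH-HC median, as were 4 of the 6 in Y397D-T3. The log2 difference from VEH-HC was -0.32 ± 0.11 (SE) in Y397F-T10 (interval -0.56 to -0.09, adjusted p = 0.142, limma, exact permutation p = 0.0346) and 0.03 in Y397D-T3 (adjusted p = 0.902). Shb (r = 0.71), Fam50a (r = 0.71) and Asf1a (r = 0.70) were most like Ier2 within conditions.

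Ier5 (ENSMUSG00000056708, chr1:155096361-155099636, minus strand), which shares a domain with Ier2 and activates HSF1, did not differ beyond its spread. Its level was 22.1 ± 1.54 FPKM for VEH-HC, 21.8 ± 3.04 for VEH-T10, 21.04 ± 3.37 for Y397F-T10, 21.7 ± 1.27 for VEH-T3 and 23.5 ± 2.102 for Y397D-T3 (mean ± SD, n = 6 each). Its pooled log2 difference was -0.01 (interval -0.16 to 0.13), and it had the smallest coefficient of variation of the 9 genes over the 30 mice, 10.8%. Hsf1, by contrast, was called higher in VEH-T10 (0.23, adjusted p = 0.0263, limma), VEH-T3 (0.18, adjusted p = 0.0329), Y397D-T3 (0.26, adjusted p = 0.00284) and the pooled contrast (0.19, adjusted p = 0.00407), from 12.3 ± 0.639 FPKM in VEH-HC to 15.0 ± 0.662 in Y397D-T3. Gfer (r = 0.77), Pdrg1 (r = 0.76) and 9430016H08Rik (r = 0.76) followed Ier5 most closely.

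For neither mutant plasmid was any of the 9 genes called against the vehicle control of the same training, which held no DNA (limma). In Y397F-T10 against VEH-T10 none was called (0% of all rows), and none had an unadjusted p under 0.05 (3.78% of all rows). The largest difference there was that of Gadd45g, 0.20 on the log2 scale (interval -0.20 to 0.60). In Y397D-T3 against VEH-T3 none was called (0.00758%) or had an unadjusted p under 0.05 (7.87%), and Ier2 differed most, by 0.13 (interval -0.10 to 0.36). The training lengths, VEH-T10 against VEH-T3, likewise gave none at either level (0.0455% and 8.15%), with Trib1 highest at 0.16 (interval -0.12 to 0.43) and Plk3 lowest at -0.15. Over these 3 comparisons the 95% intervals reached 0.60 for Gadd45g, but no farther from 0 than -0.34 for Plk2, Plk3 and Ier5. Differences inside these intervals remain compatible with the data. With 6 mice a condition, the lack of a call therefore does not show that no difference exists.

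The classical immediate-early genes gave a yardstick for the same mice. Of 10 reference genes, 6 were called in the pooled contrast, with Egr1 (log2 difference 0.52), Egr2 (0.45), Fos (0.41), Fosb (0.39) and Egr4 (0.33) higher and Dusp1 (-0.32) lower, where 9.66% of all tested rows were called. In Y397D-T3 6 were higher (7.07% of all rows called), in VEH-T10 Fosb was higher, in VEH-T3 Egr1 was higher, and in Y397F-T10 Fosb was higher and Dusp1 lower. The pooled median was 0.34 for this list, -0.07 for the 9 genes and -0.04 over all tested rows. Of 17 other activity-induced signalling and growth genes tested, among them Sgk1, Cdkn1a, Atf3 and the Klf factors, none was called in any comparison, with a pooled median of -0.05. Of 12 family relatives tested, 2 were called in the pooled contrast, Sik2 higher and Tob1 lower, with a median of -0.02, and of 18 partners and substrates 2 were called, Hsf1 and Sipa1l1, both higher, with a median of 0.03. Set against the 9.66% of all rows called there, neither of these small counts is read as a result about its list. These lists describe the surroundings of the 9 genes and were drawn up with earlier results known.

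**Figure D4:**
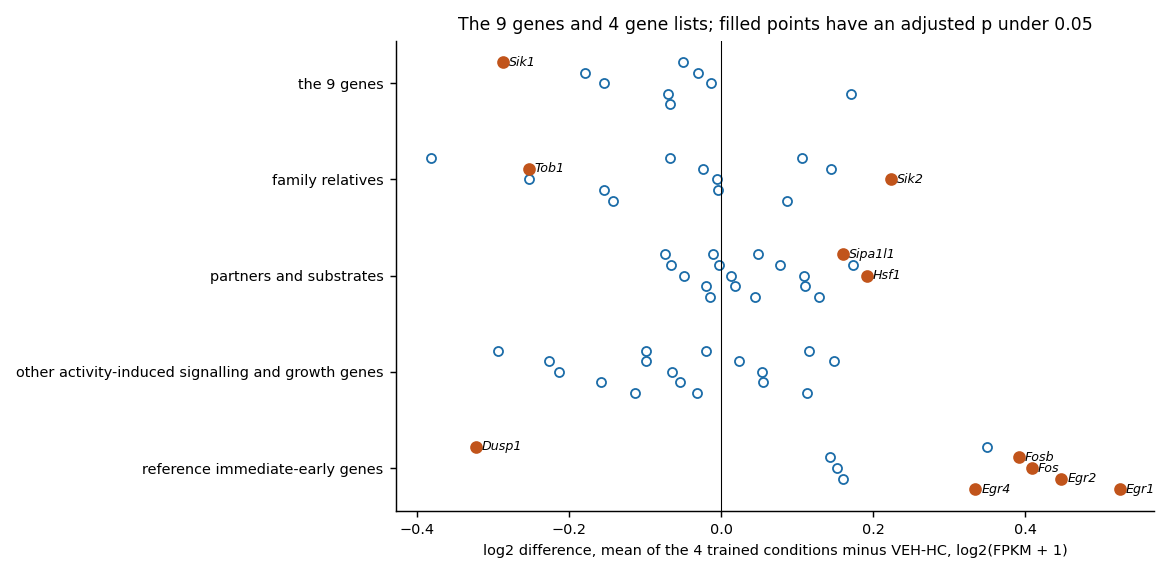
Pooled log2 difference between the 4 trained conditions and VEH-HC (horizontal axis) of every tested gene of the 9 and of 4 lists (rows, points spread vertically for legibility), with genes at an adjusted p under 0.05 filled and named. The 5 filled reference genes at the right lie between 0.33 and 0.52, beyond all of the 9 genes, the highest of which is Plk2 at 0.17.

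The 9 genes varied together from mouse to mouse. After subtraction of condition means, 34 of their 36 pairwise correlations over the 30 libraries were above 0, with a median r of 0.40, and 9 pairs without that subtraction had an adjusted p under 0.05 (permutation, over 36 pairs). The strongest pair was Ier2 and Btg2, with r = 0.67 and rho = 0.63 (adjusted p = 0.00324 and 0.00900), r = 0.65 without the 2 farthest libraries and r = 0.67 within conditions. Within conditions Gadd45g correlated with Trib1 at r = 0.66 and with Btg2 at r = 0.60, and Plk3 with Trib1 at r = 0.60. The adjusted p of r without subtraction was 0.0106, 0.0173 and 0.0264 for these pairs, whose rho was 0.45, 0.39 and 0.51 (adjusted p = 0.0738, 0.0960 and 0.0395) and whose r without the 2 farthest libraries was 0.45, 0.48 and 0.50. Sik1 stood apart, with within-condition r between -0.11 (Plk2) and 0.31 (Plk3).

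**Figure D5:**
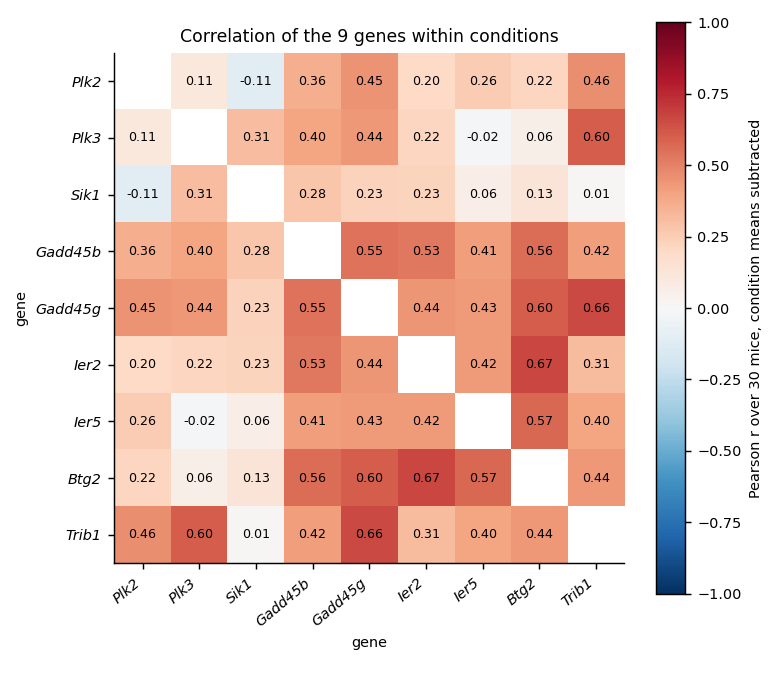
Pearson r of log2(FPKM + 1) between each pair of the 9 genes over 30 mice after subtraction of condition means (colour scale from -1 to 1, value in each cell). Ier2, Btg2, Gadd45b and Gadd45g form the warmest block, with r from 0.44 to 0.67, and the row of Sik1 is pale.

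Part of this shared variation went with the libraries as a whole. The median FPKM of a library correlated within conditions with Gadd45g at r = 0.79, with Btg2 at r = 0.70, with Ier2 at r = 0.60 and with Gadd45b at r = 0.59. The correlation was r = 0.53 for Trib1, 0.49 for Sik1, 0.46 for Ier5 and 0.43 for Plk3, but 0.21 for Plk2. Over all 30 libraries the relation was r = 0.77 and rho = 0.65 for Gadd45g (permutation p = 2e-05 and 2e-04, adjusted 0.00018 and 0.0018 over the 9 genes, r = 0.66 without the 2 farthest). For Sik1 it was r = 0.55 and rho = 0.56 (permutation, adjusted p = 0.0047 and 0.0044, r = 0.58 without the 2 farthest). The middle library median of a condition was 10.01 FPKM in VEH-HC and 9.67 to 9.85 in the trained conditions. Its part in the call of Sik1 was not tested beyond centring. VEH-T3 mouse 1, which had the lowest library median of all, 9.08 FPKM, also had the lowest value of its condition for 7 of the 9 genes. Y397D-T3 mouse 2 had a library median of 9.17 and the lowest value for 5 of the 9, and Y397F-T10 mouse 1 a median of 9.25 and again the lowest for 5.

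Several of the 9 genes also varied with the classical immediate-early genes across mice. Of 90 relations between the 9 genes and 10 reference genes, Ier2 with Dusp1 was the closest by pooled r, with r = 0.70 and rho = 0.68 (permutation, adjusted p = 0.0018 and 0.0036 over 90 relations), r = 0.65 without the 2 farthest libraries and r = 0.59 within conditions. Gadd45b followed Junb with r = 0.67 and rho = 0.65 (adjusted p = 0.0036 and 0.0078), r = 0.61 without the 2 farthest and r = 0.74 within conditions. Plk2 followed Egr1 with r = 0.63 and rho = 0.63 (adjusted p = 0.00473 and 0.0078), r = 0.62 without the 2 farthest and r = 0.51 within conditions. Not every reference gene went this way. Fosb had a within-condition r of -0.56 with Gadd45g, -0.37 with Plk2, -0.35 with Trib1 and -0.32 with Btg2, and of 0.0072 with Sik1. Dusp1, named above with Ier2, was the reference gene called lower in the pooled contrast. All these relations share the depth and composition of the libraries, whose part was not tested.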

How the data were processed

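Per the labels and the study's methods, paired reads were mapped by the authors with TopHat2 2.1.1 to the mm10 genome and turned into FPKM with Cufflinks 2.2.1, and the FPKM values were used as deposited, in 24883 rows by symbol and 30 columns, with 0 columns left out. FPKM divides by transcript length and mapped fragments, so it holds no read totals, a highly expressed gene lowers the values of others, and precision rests on the spread among 6 mice. Columns were matched to mice by the sample labels. Libraries ran on NovaSeq and HiSeq, but which ran on which is not given in the sources used here, so no batch could be modelled.

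Rows with a mean of at least 1 FPKM (13184) entered limma 3.58.1 (R 4.3.3) as log2(FPKM + 1), which understates changes of low genes, with a coefficient per condition over all 30 libraries, a trend on mean expression and Benjamini-Hochberg adjustment over all rows at 0.05. The study's own test, Cyber-T, was not used. Exact permutation tests were 2-sided, and correlations used 100000 permutations. Other steps ran in Python 3.11.15 (scipy 1.17.1, numpy 2.4.6, matplotlib 3.10.9, pandas 2.3.3). Scripts were tested on simulated data. Coordinates, lengths and GC content came from GENCODE M21 (GRCm38) by symbol (96.2% of tested rows matched), and promoters from RefSeq.

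The 9 genes and the gene and marker lists were chosen with earlier results of these data known. The rule named all 9 genes, the genes of 4 lists (family relatives, partners and substrates, other activity-induced genes, reference immediate-early genes) that were called or are relatives of a gene described, and for each of the 9 the 3 rows most correlated after subtraction of condition means. A called gene of these lists is not reported here. Alternatives were all rows above 0 in at least 6 libraries in place of the filter, a pseudocount of 0.1, centring on the library median, removal of length and GC trends, only the conditions compared, a replicate block, unadjusted p values, exact permutation and leaving out each library. Choroid plexus and CA1 marker levels as covariates were added after seeing the data.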

Additional observations from a re-analysis of the deposited data

Results flagged for a closer look

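In each of 45 sets of 6 values (9 genes in 5 conditions) the highest and the lowest mouse were compared with the nearest of the others, and chance alone flags about 1 in 20 sets. A gap above Dixon's 95% critical value was found in 2 sets. Ier2 in Y397F-T10 mouse 2 was at 6.40 FPKM, with the next mouse at 4.61, a gap of 0.744 of the range. This mouse also had the highest value of its condition for 5 of the 9 genes and the highest library median of all mice, 10.3 FPKM. Btg2 in VEH-T3 mouse 1 was at 3.70 FPKM, with the next mouse at 5.53, a gap of 0.673 of the range. That mouse had the lowest value of its condition for 7 of the 9 genes and the lowest library median of all, 9.08 FPKM. The part of the library median in either value was not tested.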

How the results depend on the processing

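Over the differences of the 9 genes, 648 values under alternative settings kept their direction and side of the threshold, 18 passed a threshold where the reported value had not (4 of them by adjusted p, 8 only by an unadjusted limma p and 6 by the unadjusted exact permutation test), 6 lost it, and 30 changed sign without being called under either setting, leaving out single libraries aside. In the pooled contrast, where 1 of the 9 genes was called, 0 were called without the filter on mean FPKM, with libraries centred, with the replicate block, and with the choroid plexus or the CA1 marker level as a covariate, whereas with length and GC trends removed Plk2 (adjusted p = 0.0205) took the place of Sik1 (0.0902). The adjusted p of Sik1 was 0.0559 without the filter, 0.0587 with centring, 0.0640 with the block, 0.0517 with the CA1 covariate, 0.229 with the choroid plexus covariate and 0.0474 with a pseudocount of 0.1. Leaving out each library gave 0 to 2 called genes there. In Y397D-T3 against VEH-HC, 1 gene, Plk2, was called with centring, with length and GC trends removed and with only the conditions compared, and leaving out each library gave 0 to 1. In the other 7 comparisons leaving out each library gave 0 to 0. At unadjusted p under 0.05 VEH-T3 against VEH-HC had 1 gene, and each of the other 3 trained conditions against VEH-HC, the pooled contrast and the F test had 2. The cause of these changes was not tested.

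The 30 log2 differences that changed sign were small, at most 0.087 in size under the alternative and 0.18 as reported, and none is read as a direction. With the choroid plexus covariate, Gadd45g turned positive in VEH-T10 (0.060), VEH-T3 (0.023) and Y397D-T3 (0.034) and in the pooled contrast (0.087) against VEH-HC, and in VEH-T10 (0.037) and Y397D-T3 (0.011) against VEH-T3. So did Gadd45b (0.029) and Ier5 (0.0017) in VEH-T10 against VEH-HC, Ier5 in the pooled contrast (0.011) and in VEH-T10 against VEH-T3 (0.014), Btg2 in Y397D-T3 against VEH-HC (0.016) and Sik1 in Y397D-T3 against VEH-T3 (0.015). With length and GC trends removed, the values were positive for Gadd45b (0.063) and Ier5 (0.015) in VEH-T10, for Gadd45b (0.058), Gadd45g (0.057), Ier2 (0.036) and Ier5 (0.048) in VEH-T3, for Plk3 in Y397D-T3 (0.018), and for Gadd45b (0.056), Gadd45g (0.031), Ier5 (0.049), Plk3 (0.024) and Trib1 (0.025) in the pooled contrast, each against VEH-HC. With libraries centred, Gadd45b (0.029) and Ier5 (0.0054) were positive in VEH-T10 against VEH-HC, as was Ier5 against VEH-T3 (0.0096) and in the pooled contrast (0.016). Trib1 in Y397D-T3 against VEH-HC turned negative with the CA1 covariate (-0.038) and with a pseudocount of 0.1 (-0.0024).

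The replicate numbers of the labels belong to different mice. Same-numbered libraries correlated over 0.1 in only 24 of 60 pairs, with a median of 0.04 (0.01 for other numbers), so they were not taken as pairs. The block changed no other call of the 9 genes than that of Sik1. FPKM gives no counts, so no interval for depth can be set, and the precision of the weakly expressed Sik1, Trib1 and Plk3 rests on the spread among mice.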
